A study of Mus musculus with 2 samples.

Results

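Autophagy genes encode the machinery by which a cell wraps part of its own cytoplasm in a double membrane, the autophagosome, and delivers it to lysosomes for digestion. A list of 36 such genes was chosen by name, with earlier results of these data known. They are described here in eosinophils and dendritic cells of the mouse small intestine. Of the 36 genes, 31 had at least 1 probe set that the array annotation assigns to that gene alone, with 60 such probe sets in all, out of 12393 genes with a probe set of their own. Atg9a, Atg4c, Optn, Calcoco1 and Epg5 had none and were not analysed here. Where a gene had more than 1, its brightest probe set by mean log2 signal over the 2 arrays stood for it.

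The pathway runs in steps. A kinase complex built on ULK1 or ULK2 starts it, and a lipid kinase complex around Beclin 1 marks the membrane where the autophagosome forms. Ubiquitin-like conjugation enzymes then attach small proteins of the ATG8 family (the LC3 and GABARAP proteins) to that membrane, where cargo receptors such as p62 bind them. In dendritic cells, autophagy proteins are known for feeding intracellular material to antigen presentation on MHC class II. In the gut, Atg16l1 is best known through its human counterpart, a susceptibility gene for Crohn's disease.

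The series held 2 arrays of sorted, unstimulated cells taken from the lamina propria of the small intestine in C57BL/6 mice aged 8 weeks. The eosinophil sample was sorted as CD11b+, CD11c intermediate, MHCII- and SiglecF+, and the dendritic cell sample as CD11c+ and MHCII+. No transgene or treatment is given for either sample, and the labels do not say how many animals were sorted. With 1 array for each population there was no replicate error, so no p-value was computed, and every difference describes these 2 arrays.

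Each probe set carries a linear signal intensity that the authors computed with MAS5. A signal under 134.7 units, the median over both arrays together, was raised to that floor before the log2 difference was taken, and a fold whose dimmer side was raised is given as "at least". A gene dimmer than the floor on both arrays counts as not measured. The 95th percentile of genes of germ cells, lens, hair and olfactory tissue was 197 units, so a signal between 134.7 and 197 units may be background. The one spread these data contain is how far probe sets for a single gene disagree: over 4402 probe sets of 1766 genes, its pooled SD was 0.73 log2 units (1.65-fold).

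The sorts matched their labels by marker genes. Of 6 measured eosinophil markers, 5 were at least 4-fold brighter on the eosinophil array, and of 10 measured dendritic cell markers, 8 were at least 4-fold dimmer there. Marker signals of other cell types were summed, those under the floor included. On the eosinophil and dendritic cell arrays the sums were 2306 and 4453 units for macrophages (9 genes) and 789 and 4725 units for T cells (8 genes). They were 1866 and 1065 units for epithelium (8 genes) and 1218 and 441 units for neutrophils (7 genes). Stroma and endothelium (8 genes) summed to 1657 and 1277 units, and mast cells (7 genes) to 480 and 753 units. Single genes gave much of some sums. In eosinophils these were Krt18 (870 units, epithelium), Cxcr2 (570 units, neutrophils) and Pecam1 (647 units, endothelium). In dendritic cells Vwf gave 640 units of the stromal and endothelial sum. Cd8a, which a subset of mouse dendritic cells also carries, had signals of 141 units (eosinophils) and 3732 units (dendritic cells) and made up most of the T cell sum, and no marker of B or plasma cells among 5 was above the floor on either array. The part of these cells in the results was not tested. In such bulk samples, fewer cells of a type and less RNA per cell cannot be told apart.

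Most of the autophagy machinery was above the floor on both arrays, and most of the genes measured there were under 2-fold apart. Of the 31 genes, 30 exceeded the floor somewhere (96.8%, against 64.5% of all genes with a probe set). Of these 30, 23 did so on both arrays (76.7%, against 67.4% of all measured genes), 3 in eosinophils alone and 4 in dendritic cells alone. Atg10 alone was under the floor on both. Where both signals passed the floor, 17 of 23 genes differed by less than 2-fold (73.9%, against 62.8% of all 5389 such genes). Of the 23, 14 were within 1 SD of probe sets of no difference. This was not counted for all genes, so it shows nothing particular to autophagy. Of the other 7, 5 had a bound under 2-fold (Atg13, Atg101, Pik3c3, Pik3r4 and Map1lc3a), which does not show that they were less than 2-fold apart. With the floor lowered to the 25th percentile of signals, Atg101, Pik3r4 and Map1lc3a passed 2-fold and 11 of 30 genes were at least 2-fold apart, beside 45.9% of all measured genes.

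The ATG8 family gene Gabarapl1 and the Beclin 1 partner Uvrag were at least 4-fold dimmer in eosinophils, and the conjugation gene Atg5 was at least 4-fold brighter. These were 3 of 30 genes, beside 10.7% of all measured genes, with 1 brighter (3.33%, against 5.35%) and 2 dimmer (6.67%, against 5.35%). At 2-fold or more, Rb1cc1, Atg7 and Wipi1 joined Atg5 as brighter in eosinophils, and Sqstm1 and Atg16l1 joined Gabarapl1 and Uvrag as dimmer. That gave 4 genes brighter (13.3%, against 19.0% of all measured genes) and 4 dimmer (13.3%, against 15.5%), or 8 in all (26.7%, against 34.5%). The shares were near those of all genes or below them, so the counts show nothing particular to autophagy.

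The median log2 difference, eosinophil minus dendritic cell, was 0.14 over the autophagy genes and 0.16 over all measured genes. Both moved with the scaling of the arrays. Under 4 other scalings the autophagy median lay between -0.14 and 0.17 and that of all genes between -0.056 and 0.18. The hybridisation spike controls, bacterial and phage transcripts added before hybridisation, had a median excess of 2.06-fold in eosinophils over their 18 probe sets. Centred on them, the medians were -0.75 and -0.63. The autophagy genes at least 2-fold apart became 1 brighter and 11 dimmer in eosinophils (40% together, against 42.9% of all measured genes). Of all measured genes, 6.00% were then 2-fold or more brighter and 36.9% were 2-fold or more dimmer. At 4-fold, 0 autophagy genes were brighter and 4 dimmer, beside 16.1% of all measured genes in either direction. In that scaling 13 of the 30 genes changed sign, all of them under 2-fold apart as deposited. Folds below are on the deposited scale.

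**Figure D1:**
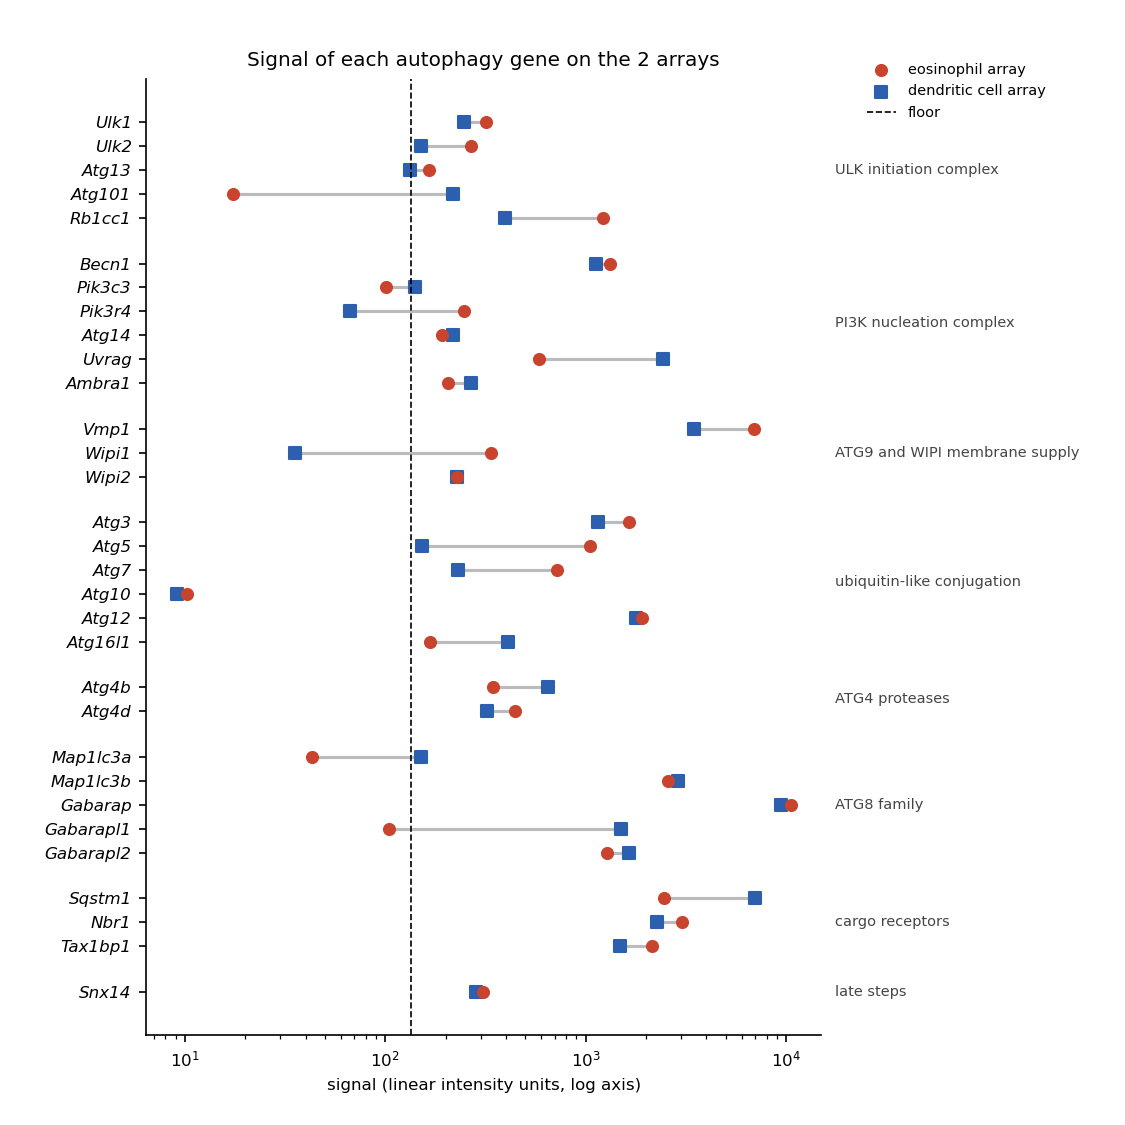
Signal of the 31 autophagy genes with a probe set, in linear intensity units on a log axis, for the eosinophil array (circles) and the dendritic cell array (squares), 1 array each, grouped by role; the dashed line is the floor of 134.7 units. Most pairs of points lie close together, and the widest gap is that of Gabarapl1, at 104 units in eosinophils against 1498 units in dendritic cells.

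In the ULK complex, which starts autophagosome formation, 1 of 5 genes was at least 2-fold apart, beside 34.5% of all measured genes. Rb1cc1, which encodes the scaffold FIP200, measured 1222 units on the eosinophil array and 397 units on that of dendritic cells, 3.08-fold brighter in eosinophils. Its other probe set gave 243 units and 134.8 units and pointed the same way by 1.80-fold, with the dendritic cell signal at the floor. Centred on the spike controls the log2 difference of Rb1cc1 was 0.58, against 1.62 as deposited. Of the kinases, Ulk1 read 318 units in eosinophils against 248 units in dendritic cells, 1.28-fold apart. Ulk2 had signals of 268 units (eosinophils) and 152 units (dendritic cells), 1.77-fold apart, and a second probe set was at least 2.26-fold brighter in eosinophils. Both kinases were therefore above the floor on both arrays, with Ulk2 in dendritic cells at a level that may be background.

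The smaller subunits of the complex were dim. Atg13, the regulatory subunit that links kinase and scaffold, measured 166 units on the eosinophil array and 132 units on that of dendritic cells, and its second probe set had the opposite sign (22.4 units and 170.1 units). Atg101, the partner that stabilises Atg13, read 17.5 units in eosinophils against 217 units in dendritic cells, at least 1.61-fold dimmer in eosinophils. Because the eosinophil signal lay far under the floor, the bound is weak: with the floor lowered to the 25th percentile, or with none, Atg101 passed 4-fold.

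In the lipid kinase complex, Uvrag was the 1 gene of 6 at least 2-fold apart, beside 34.5% of all measured genes. Uvrag, which replaces Atg14 in the form of the complex that acts on endosomes and on late autophagosomes, had signals of 583 units (eosinophils) and 2426 units (dendritic cells), 4.16-fold dimmer in eosinophils. It has 1 probe set, so no second measurement bears on it, and it was at least 4-fold dimmer under the 5 other scalings, the alternatives that could move it. Becn1, which encodes the scaffold Beclin 1, measured 1329 units on the eosinophil array and 1129 units on that of dendritic cells, 1.18-fold apart. Of its 4 probe sets, 3 were brighter and 1 dimmer in eosinophils, between -0.72 and 0.66 on the log2 scale.

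The other subunits were near the floor. Atg14, which directs the complex to the forming autophagosome, read 191 units in eosinophils against 218 units in dendritic cells, 1.14-fold dimmer in eosinophils. Pik3c3, the catalytic subunit VPS34, had signals of 100.4 units (eosinophils) and 140.4 units (dendritic cells), so only the dendritic cell side was above the floor. Pik3r4, its regulatory subunit VPS15, measured 247 units on the eosinophil array and 66.8 units on that of dendritic cells, at least 1.83-fold brighter in eosinophils. With the floor lowered to the 25th percentile its log2 difference was 1.89, and its 1 probe set carries an ID for sequence shared between transcripts. Ambra1, an activator of Beclin 1, read 205 units in eosinophils against 268 units in dendritic cells, 1.31-fold dimmer in eosinophils. At these levels no difference between the arrays was detectable for Pik3c3 or Atg14.

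Of 3 measured genes of membrane supply and lipid recognition, 1 was at least 2-fold apart, beside 34.5% of all measured genes. Vmp1, an endoplasmic reticulum protein needed for autophagosome formation, had signals of 6953 units (eosinophils) and 3489 units (dendritic cells), 1.99-fold brighter in eosinophils, just under the 2-fold mark. A second Vmp1 probe set was dim and had the opposite sign (7.40 units and 164 units), and the mean of both gave a log2 difference of -1.74. Centred on the spike controls the difference was -0.046, so no direction can be given for Vmp1. Wipi1, a reader of the lipid that VPS34 makes, measured 337 units on the eosinophil array and 35.4 units on that of dendritic cells, at least 2.50-fold brighter in eosinophils. The other 4 probe sets of Wipi1 were under the floor on both arrays, and the mean of all its probe sets left the gene unmeasured. The probe set that stood for Wipi1 carries an ID for sequence shared between transcripts, and without such probe sets the gene was not measured. Wipi2, the paralog that recruits Atg16l1, read 229 units in eosinophils against 227 units in dendritic cells, 1.01-fold apart.

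Of 5 measured conjugation genes, 3 were at least 2-fold apart, beside 34.5% of all measured genes, in different directions. Atg7, the activating enzyme at the head of both conjugation chains, and Atg5, which is joined to Atg12, were brighter in eosinophils. Atg16l1, which binds the Atg12-Atg5 conjugate and places it on the membrane, was dimmer. The transferring enzyme Atg3 and the ubiquitin-like Atg12 were under 2-fold apart.

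Atg5 had signals of 1053 units (eosinophils) and 153 units (dendritic cells), 6.88-fold brighter in eosinophils. The dendritic cell signal lay in the range of background genes, so this fold may be a lower bound. Its other probe sets pointed the same way, with 323 units against 27.9 units (at least 2.39-fold) and 217 units against 29.1 units (at least 1.61-fold). All 3 probe sets of Atg5 were thus above the floor in eosinophils, and 1 of them was above it in dendritic cells. The size of the difference rests on the brightest probe set, whose ID marks it as shared between several transcripts, and no other Atg5 probe set reached 4-fold. Centred on the spike controls its log2 difference was 1.74.

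Atg7 measured 720 units on the eosinophil array and 232 units on that of dendritic cells, 3.10-fold brighter in eosinophils. A second probe set was nearly equal (169.8 units and 176 units, a log2 difference of -0.055) and the remaining one was under the floor on both arrays, so the probe sets of Atg7 disagreed. Atg16l1, with 1 probe set, read 167 units in eosinophils against 410.1 units in dendritic cells, 2.46-fold dimmer in eosinophils. Its eosinophil signal lay in the range of background genes, so this fold may be a lower bound. It kept at least 2-fold under the 5 other scalings and with the floor raised to the background percentile. Atg3 had signals of 1653 units (eosinophils) and 1157 units (dendritic cells), 1.43-fold apart. Atg12 measured 1916 units on the eosinophil array and 1776 units on that of dendritic cells, 1.08-fold apart, and its 3 probe sets lay between 0.018 and 0.11 on the log2 scale. Atg10, the enzyme that joins Atg12 to Atg5, read 10.2 units in eosinophils against 9.13 units in dendritic cells, under the floor on both.

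**Figure D2:**
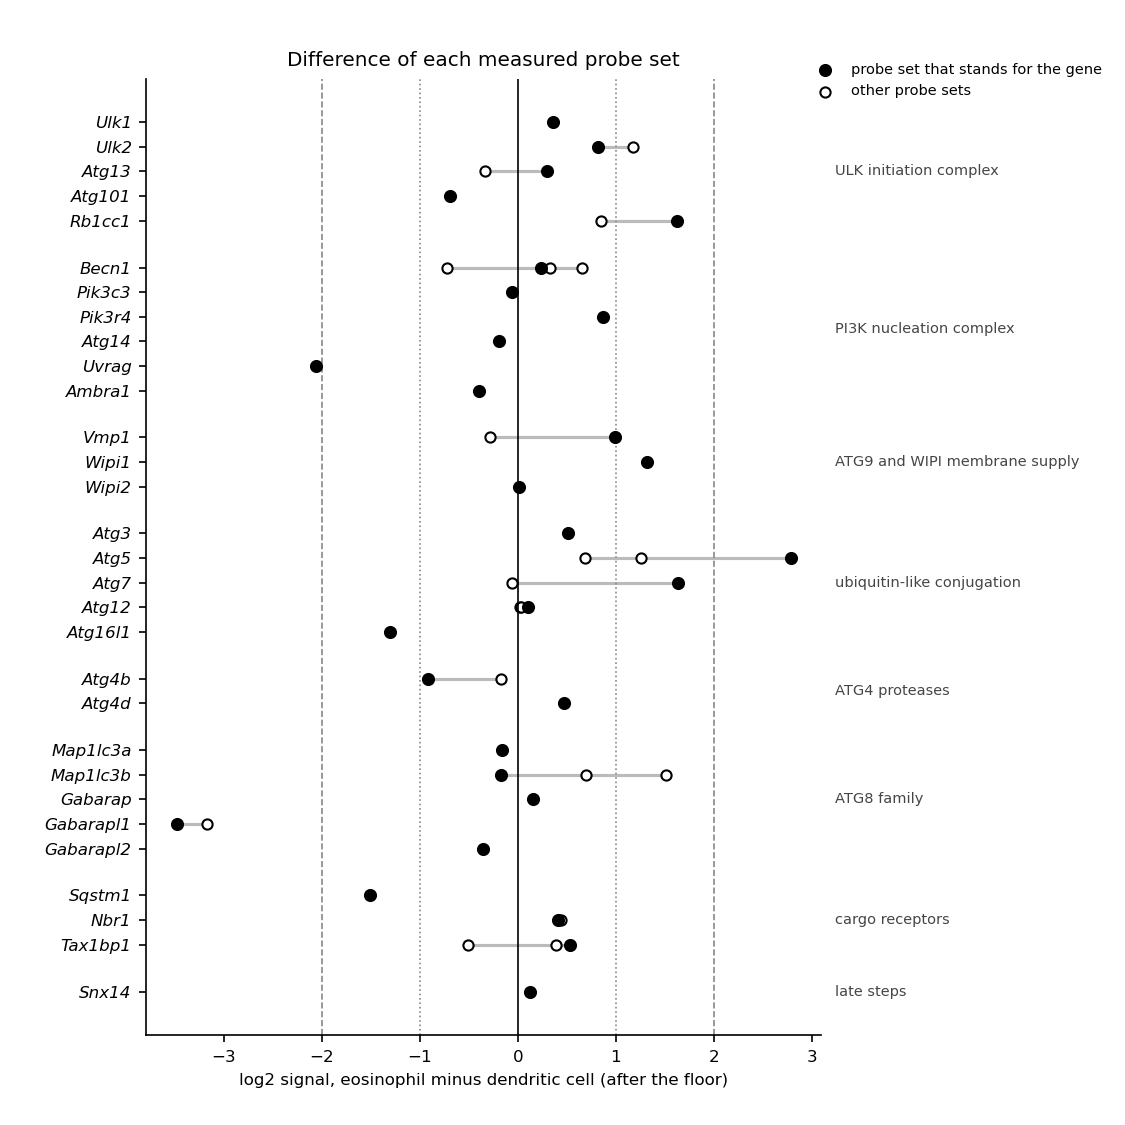
Log2 difference (eosinophil minus dendritic cell, after the floor) of each of the 49 probe sets above the floor on at least 1 array, for the 30 measured genes; filled points stand for the gene, open points are its other probe sets, and dotted and dashed lines mark 2-fold and 4-fold. Both probe sets of Gabarapl1 lie beyond 4-fold dimmer in eosinophils, whereas those of Atg7 and Map1lc3b spread across no difference.

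The promoters of all autophagy genes with an entry were searched. Those printed below belong to 4 genes on the + strand, 3 of the conjugation group and Gabarapl1. They were picked with the differences of these data known, and Uvrag, also at least 4-fold apart, is not printed. The RefSeq table (build GRCm38.p6) gives 300 bases per promoter, 250 before and 50 after the annotated start, and 29 of the 36 genes had an entry. The letters CACGTG, the E-box that the lysosomal and autophagy regulator TFEB and many other factors can bind, read the same on both strands. They occurred in 4 of 34 promoters of autophagy genes (11.8%) and in 7.15% of all 32851 promoters. The 4 were those of Atg3, Atg5, Atg7 and Atg14. Thus 3 of the 4 conjugation genes with an entry held the letters, against 1 of 25 other autophagy genes and 8.09% of all genes. The conjugation group was picked after its differences were seen, so this contrast of few genes is no test. The longer form TCACGTG, searched on both strands and contained in the first count, occurred in 3 autophagy promoters (8.82%) and in 3.77% of all promoters. Such a match is a description of the letters. The 250 bases before the start are given below 5′ to 3′ along the gene's strand, with CACGTG in capitals.
Atg3 (chr16:45158579-45158828, strand +): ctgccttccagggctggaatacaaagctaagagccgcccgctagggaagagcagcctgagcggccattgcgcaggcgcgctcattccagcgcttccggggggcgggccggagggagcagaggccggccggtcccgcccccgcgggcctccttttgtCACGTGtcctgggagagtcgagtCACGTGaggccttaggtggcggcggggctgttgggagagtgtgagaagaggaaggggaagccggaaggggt
Atg5 (chr10:44268089-44268338, strand +): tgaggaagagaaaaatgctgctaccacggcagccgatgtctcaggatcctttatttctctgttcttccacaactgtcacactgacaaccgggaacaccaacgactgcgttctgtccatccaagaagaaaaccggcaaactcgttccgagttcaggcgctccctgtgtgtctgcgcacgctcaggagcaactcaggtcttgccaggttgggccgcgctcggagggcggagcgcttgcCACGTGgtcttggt
Atg7 (chr6:114670846-114671095, strand +): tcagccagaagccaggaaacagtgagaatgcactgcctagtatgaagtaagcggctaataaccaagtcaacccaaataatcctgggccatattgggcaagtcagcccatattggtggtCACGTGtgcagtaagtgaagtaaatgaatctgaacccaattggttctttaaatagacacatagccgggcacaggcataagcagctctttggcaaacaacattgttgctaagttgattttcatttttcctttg
Gabarapl1 (chr6:129532942-129533191, strand +): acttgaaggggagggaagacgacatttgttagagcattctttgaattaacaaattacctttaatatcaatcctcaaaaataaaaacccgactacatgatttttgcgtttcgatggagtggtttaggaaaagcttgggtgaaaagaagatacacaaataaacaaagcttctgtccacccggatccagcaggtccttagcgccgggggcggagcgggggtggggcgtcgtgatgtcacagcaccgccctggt

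Atg3 held the E-box letters 2 times, beginning 94 and 71 bases before its start, Atg5 once, beginning 14 bases before its start, and Atg7 once, beginning 132 bases before its start. The Atg7 window belongs to a start inside the annotated gene rather than at its first base. In the Gabarapl1 window these letters were not found. Among the 4 genes with the letters, the differences ranged from 6.88-fold brighter in eosinophils for Atg5 to 1.14-fold dimmer for Atg14. The G and C content of the printed stretches was 68.0% for Atg3, 56.4% for Atg5, 43.2% for Atg7 and 46.8% for Gabarapl1.

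The ATG4 proteases, which trim ATG8 proteins before conjugation and release them afterwards, were under 2-fold apart. Atg4b, the main protease of the family, had signals of 343 units (eosinophils) and 649 units (dendritic cells), 1.89-fold dimmer in eosinophils, and its second probe set had the same sign by 0.17 on the log2 scale. Atg4d measured 444 units on the eosinophil array and 321 units on that of dendritic cells, 1.38-fold brighter in eosinophils.

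Within the ATG8 family, 1 member of 5 was at least 2-fold apart, beside 34.5% of all measured genes. Gabarapl1, a GABARAP paralog also called Atg8l, read 104 units in eosinophils against 1498 units in dendritic cells, at least 11.1-fold dimmer in eosinophils. Its second probe set had signals of 41.0 units (eosinophils) and 1210.2 units (dendritic cells), at least 8.98-fold dimmer. Both eosinophil signals lay under the floor and both dendritic cell signals far above it, and the gene was at least 4-fold dimmer in all 11 alternatives. The brighter probe set carries an ID for sequence shared between transcripts, and the second one does not.

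The other GABARAP genes and Map1lc3b were well above the floor on both arrays. Gabarap measured 10534 units on the eosinophil array and 9479 units on that of dendritic cells, 1.11-fold apart. Gabarapl2, also called GATE-16, read 1285 units in eosinophils against 1646 units in dendritic cells, 1.28-fold dimmer in eosinophils. Map1lc3b, which encodes LC3B, the usual marker of autophagosomes, had signals of 2580.1 units (eosinophils) and 2903 units (dendritic cells), 1.13-fold dimmer in eosinophils.

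Map1lc3b was also the gene of the family whose probe sets disagreed most. Its other measured probe sets were 1.62-fold (2384 units against 1472 units) and 2.86-fold (575 units against 202 units) brighter in eosinophils, and averaging all 4 probe sets gave a log2 difference of 1.84. That average takes in a probe set at 124 units in eosinophils against 3.10 units in dendritic cells, both under the floor. No direction can therefore be given for Map1lc3b. Map1lc3a, which encodes LC3A, measured 43.1 units on the eosinophil array and 150.2 units on that of dendritic cells, so that its difference was only bounded. With the floor lowered to the 25th percentile its log2 difference was -1.80.

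Of the cargo receptors, which bind both ubiquitin-tagged cargo and ATG8 proteins, Sqstm1 was at least 2-fold apart and Nbr1 and Tax1bp1 were not. Sqstm1, which encodes p62, read 2462 units in eosinophils against 6977 units in dendritic cells, 2.83-fold dimmer in eosinophils. It has 1 probe set and was at least 2-fold dimmer under the 5 other scalings, the alternatives that could move it. Nbr1, a receptor that works beside p62, had signals of 3019 units (eosinophils) and 2275 units (dendritic cells), 1.33-fold brighter in eosinophils, and its probe sets differed by 0.41 and 0.44 on the log2 scale. Tax1bp1 measured 2145 units on the eosinophil array and 1487 units on that of dendritic cells, 1.44-fold brighter in eosinophils, with 1 of 3 probe sets of the opposite sign. For Nbr1 and Tax1bp1 the sign changed when the arrays were centred on the spike controls. Snx14, a sorting nexin linked to the clearance of autophagosomes, read 308 units in eosinophils against 283 units in dendritic cells, 1.09-fold apart.

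**Figure D3:**
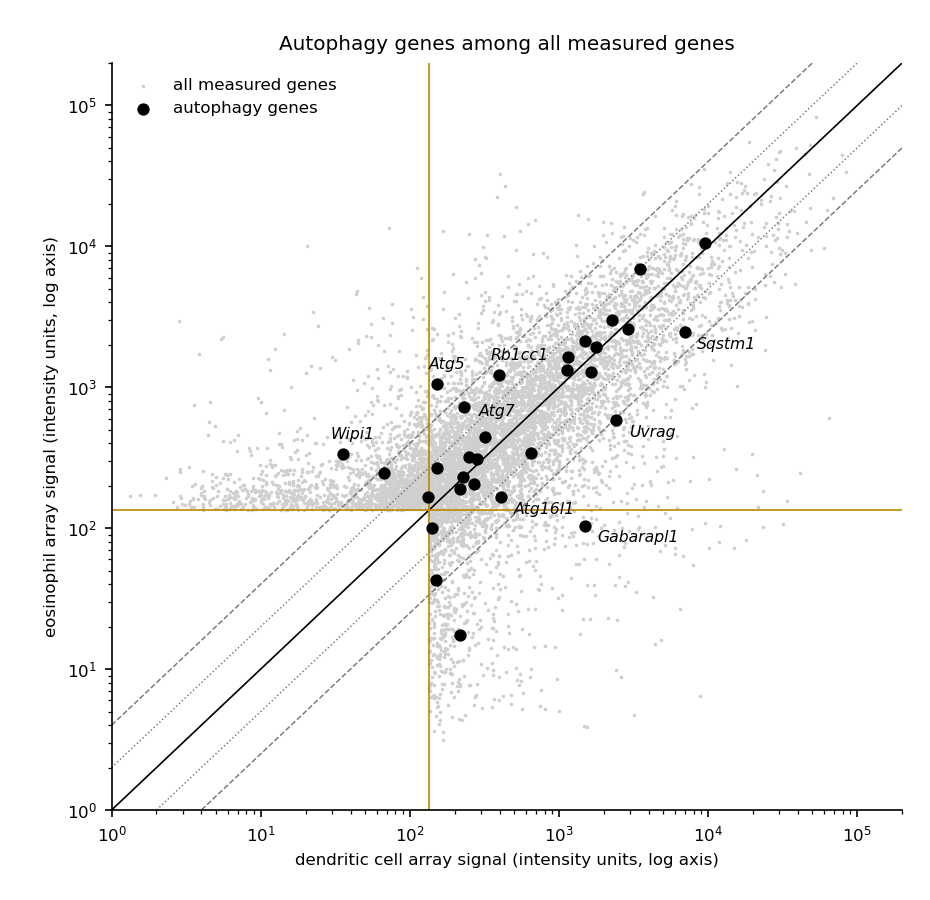
Eosinophil signal (vertical) against dendritic cell signal (horizontal), both in linear intensity units on log axes, for all 7994 measured genes (grey) and the 30 measured autophagy genes (black), 1 array each; the solid diagonal marks equal signal, dotted and dashed lines 2-fold and 4-fold, and the straight lines the floor on each array. The autophagy genes lie mostly within the 2-fold lines, and the 8 genes at least 2-fold apart after the floor are named.

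Disagreement between probe sets of the same gene is the only spread in these data, and it does not measure the error between arrays. Of 13 autophagy genes with 2 or more measured probe sets, all of them had the same sign for 7 genes, and the signs were mixed for 6. The other 17 measured genes rest on 1 measured probe set each, among them Uvrag, Sqstm1, Atg16l1 and Wipi1. The pooled SD between probe sets of the autophagy genes was 0.66 on the log2 scale, from 8 genes with 19 probe sets that passed the floor on each array. On that measure Gabarapl1, Uvrag and Atg5 exceeded the spread by the widest margins, though none of them is among those 8 genes. Differences such as those of Becn1, Gabarap or Atg12 lay within it. The spread between animals or preparations is not known. The ratio of 3′ to 5′ control signal, a measure of RNA integrity and of 3′ bias, was 6.38 in eosinophils and 9.0 in dendritic cells for Actb, and 9.81 in eosinophils and 6.58 in dendritic cells for Gapdh, so the ratio was lower in eosinophils for one control and higher for the other.

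Other genes of the pathway were taken from 4 lists compiled from general knowledge, but with earlier results of these data known. Their shares are therefore a description and no independent comparison. Of 12 measured genes among other core autophagy genes, 3 were 2-fold or more brighter in eosinophils (25%, against 19.0% of all measured genes) and 5 were 2-fold or more dimmer (41.7%, against 15.5%), with a median log2 difference of -0.36, against 0.16 over all measured genes. Dram2, a lysosomal membrane protein that promotes autophagy, had signals of 1584 units (eosinophils) and 363 units (dendritic cells), 4.36-fold brighter in eosinophils. Its second measured probe set differed by 1.32 on the log2 scale. Trp53inp1, a stress protein that binds LC3, read 2404 units in eosinophils against 907 units in dendritic cells, 2.65-fold brighter in eosinophils. The second measured probe set of Trp53inp1 differed by 0.42 on the log2 scale. Sh3glb1, a membrane-curving partner of Uvrag, measured 813 units on the eosinophil array and 2859 units on that of dendritic cells, 3.52-fold dimmer in eosinophils, and its 3 probe sets lay between -1.81 and -0.35 log2 units. Wdr45, a relative of Wipi1, was 2.60-fold dimmer in eosinophils (358 units against 931 units).

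Of 13 measured genes that fuse autophagosomes with lysosomes, 3 were 2-fold or more brighter in eosinophils (23.1%, against 19.0%) and 2 were 2-fold or more dimmer (15.4%, against 15.5%), with a median of 0.18. Lamp1, a lysosomal membrane protein, read 8206 units in eosinophils against 2508 units in dendritic cells, 3.27-fold brighter in eosinophils. Stx17, the fusion protein of the autophagosome, had signals of 508 units (eosinophils) and 123 units (dendritic cells), at least 3.77-fold brighter in eosinophils. Its 4 measured probe sets lay between 0.90 and 1.91 log2 units after the floor. Snap29, the partner of Stx17, measured 311 units on the eosinophil array and 945 units on that of dendritic cells, 3.03-fold dimmer. The 3 probe sets of Snap29 spread between -1.60 and 0.92 log2 units. Tgm2, a transglutaminase linked to autophagosome maturation, was 4.82-fold dimmer in eosinophils (695 units against 3352 units). Its 5 measured probe sets lay between -2.34 and -0.35 log2 units.

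Of 15 measured selective autophagy genes, 4 were 2-fold or more brighter in eosinophils (26.7%, against 19.0%) and 2 were 2-fold or more dimmer (13.3%, against 15.5%), with a median of 0.52. Ccpg1, a receptor for endoplasmic reticulum cargo, read 1478 units in eosinophils against 146 units in dendritic cells, 10.1-fold brighter in eosinophils, with the dendritic cell side in the background range. Ncoa4, the receptor that carries ferritin to lysosomes, had signals of 4605 units (eosinophils) and 513 units (dendritic cells), 8.97-fold brighter in eosinophils, and its second probe set differed by 1.41 on the log2 scale. Bnip3, a mitochondrial receptor, read 522 units in eosinophils against 168 units in dendritic cells, 3.10-fold brighter in eosinophils. The dendritic cell signal of Bnip3 lay in the background range, and the gene has 1 measured probe set. Wdfy3, the large adaptor ALFY, measured 89.6 units on the eosinophil array and 1048 units on that of dendritic cells, at least 7.77-fold dimmer in eosinophils. The list thus spanned -2.96 to 3.34 log2 units.

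Of 20 measured regulators of autophagy, 5 were 2-fold or more brighter in eosinophils (25%, against 19.0%) and 3 were 2-fold or more dimmer (15%, against 15.5%), with a median of 0.34. Foxo3, a transcription factor that activates autophagy genes, read 15663 units in eosinophils against 1573 units in dendritic cells, 9.96-fold brighter in eosinophils, and both probe sets exceeded 4-fold. Its relative Foxo1 had signals of 209 units (eosinophils) and 774 units (dendritic cells), 3.70-fold dimmer in eosinophils, with all 3 probe sets of that sign. Sesn1, an inhibitor of mTOR signalling, read 807 units in eosinophils against 266 units in dendritic cells, 3.04-fold brighter in eosinophils. Its 3 measured probe sets lay between 0.74 and 1.60 log2 units. Bcl2, which binds Beclin 1, read 354 units in eosinophils against 114 units in dendritic cells, at least 2.63-fold brighter in eosinophils. Tfeb, at 85.3 units in eosinophils against 91.5 units in dendritic cells, did not reach the floor. It is named because the promoter search used its E-box, after its values were seen.

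**Figure D4:**
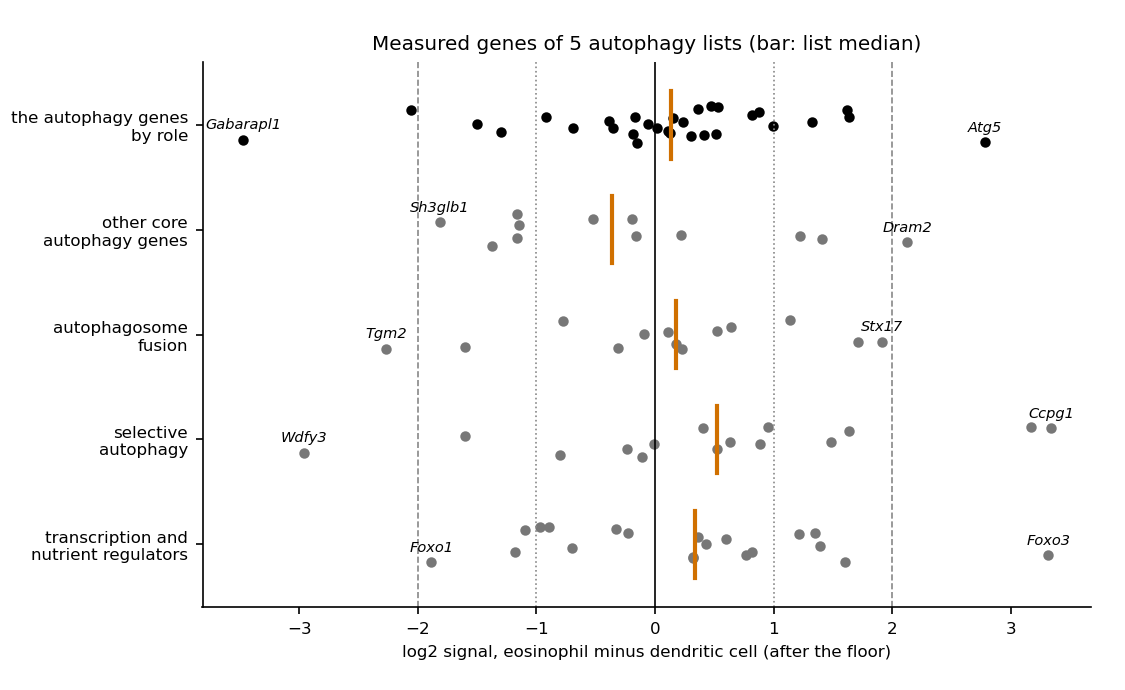
Log2 difference (eosinophil minus dendritic cell, after the floor) of each measured gene in 5 lists, 30, 12, 13, 15 and 20 genes from top to bottom; points are genes, moved at random within a row, the bar is the list median, and dotted and dashed lines mark 2-fold and 4-fold. List medians lie between -0.36 and 0.52, and single genes such as Gabarapl1, Wdfy3, Foxo3 and Ccpg1 lie far from them.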

How the data were processed

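Total RNA of 2 sorted populations was extracted with Trizol and turned into biotin-labelled cDNA with a commercial amplification kit, per the labels' protocols, and hybridised to 1 array each. The deposited values are linear signal intensity values, 1 for each of 22690 probe sets (64 of them array controls), for which the submitters' processing notes name MAS5, version 5.0. The mean without the lowest and highest 2% of signals was 500.2 in eosinophils and 500.3 in dendritic cells, so the arrays share a global scale. Detection calls were not used here, and the number of arrays limits the precision.

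Of the probe sets, 20393 had 1 gene in the platform annotation, 691 had several and 1606 had no entry. For 20364 of them a RefSeq table gave the current symbol by Entrez identifier. From these, the log2 difference after the floor (the median of all signals) was computed for each gene with Python 3.11.15 and pandas 2.3.3, as eosinophil over dendritic cell. Counts at 4-fold and 2-fold were set beside the same share of all measured genes. The script was tested on simulated data. Alternatives were other scalings (median, quantile, loess with span 0.3 in statsmodels 0.14.6, housekeeping genes, spike controls), floors, probe set rules and a 10-fold mark. Every autophagy gene of the list is named, and up to 4 genes of each other pathway list with the largest difference. The members and lists were chosen with earlier results of these data known. Sequences are from RefSeq, build GRCm38.p6.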

Additional observations from a re-analysis of the deposited data

How the results depend on the processing

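Of the values for single genes, the sign of a gene at least 2-fold apart turned 1 time, for Atg7, at -0.055 with the probe set of the smallest difference. A further 43 values moved by more than 1 SD of probe sets, among them those of 24 of the 30 genes when centred on the spike controls. The count of autophagy genes at least 4-fold apart was 3 as reported, and 1 (Gabarapl1) at 10-fold. With the floor lowered to the 25th percentile it was 5 of 30, beside 13.5% of all measured genes. With no floor and a pseudocount of 1 it was 5 of 31, beside 26.4% of all genes. Atg101 and Wipi1 passed in both of these settings. The count at least 2-fold apart, 8 as reported, was 5 of 30 with the probe set of the smallest difference, beside 24.9% of all measured genes. That rule lowers the count by construction. The median log2 difference, 0.14 as reported, was -0.75 when centred on the spike controls, against -0.63 for all genes. Gabarapl1 kept at least 4-fold across the 11 alternatives. Atg5, the only gene at least 4-fold brighter in eosinophils as reported, kept that mark in 7 of the 11. It lost it when centred on the spike controls and under the 3 other probe set rules, where no autophagy gene was at least 4-fold brighter. Its lowest log2 difference was 0.69, with the probe set of the smallest difference. Uvrag, Sqstm1 and Atg16l1 kept at least 2-fold under the 5 other scalings, and with 1 probe set each the 3 other probe set rules could not move them. With both directions counted together, the other 29 summary values for these settings lay within 1.5 times the reported counts or 1 SD of probe sets of the reported median. Low signals limit the 11 measured genes with a side under the background percentile. These are Pik3c3, Atg13, Map1lc3a, Atg14, Atg16l1, Atg101, Pik3r4, Wipi1, Ulk2, Atg5 and Gabarapl1. Atg10 was under the floor on both arrays. No paired analysis was possible because each population had 1 array.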
